A study of Mus musculus with 12 samples.

Results

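The variable (V) segments of the immunoglobulin heavy chain were examined in megakaryocytes (MKs) of the BM and the spleen. Of the 55536 genes in the count table, 113 had a GENCODE symbol that starts with Ighv and the biotype IG_V_gene, and these 113 segments were analyzed in all 12 libraries. All 113 lie on the minus strand of chromosome 12 between 113578504 and 116000461 on GRCm38, a stretch of 2.42 Mb, and belong to 16 sequence families. Family 1 is the largest with 53 segments, followed by family 5 with 10 and families 2 and 8 with 9 each. MKs had been sorted as CD45+, lineage-negative, Pf4-tomato+, CD41+ and CD42b+ cells from C57BL/6 mice in which a Cre recombinase under the promoter of the MK gene Pf4 switches on the TdTomato reporter, and this reporter was shared by all 4 groups. The lineage antibodies included B220, and the sort was also described as negative for the plasma cell protein CD138. The groups were BM MKs and splenic MKs taken on day 5 after saline, and BM MKs and splenic MKs taken on day 5 after sepsis induced with cecal slurry, with 3 independent replicates each and 300 sorted cells in each library. The sex and the age of the mouse behind each library were not given in the labels, and nothing in the sources used here ties a BM library to a splenic library of the same mouse.

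In a B cell, 1 V segment is cut and joined to a D and a J segment by the RAG recombinase, and the rearranged gene is transcribed from the promoter of the chosen V segment together with a constant region. Because each B cell and its progeny carry 1 productive heavy chain, the mix of V segments in an RNA sample reflects which B lineage cells contributed and how much RNA each of them gave, and plasma cells hold far more immunoglobulin RNA per cell than resting B cells. MKs are not known to rearrange these genes. In a bulk library, fewer cells of a type and less RNA per cell cannot be told apart.

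Total counts per library ranged from 7756762 to 27386184. The genes that define MKs (Pf4, Ppbp, Itga2b, Gp1ba, Gp9, Gp6 and Vwf) were all detected in every group, with a summed level of 22621 to 25518 CPM (counts put on a common depth with edgeR's TMM factors) in BM MKs after saline and 11349 to 46565 CPM after sepsis, against 1284 to 3390 CPM and 1137 to 1826 CPM in splenic MKs. Of these 7 genes, edgeR's quasi-likelihood test called 2 higher in BM MKs after saline (Pf4 and Vwf) and 2 after sepsis (Pf4 and Ppbp). Of all genes tested, 0.523% and 0.597% were called higher. Splenic replicate 3 after sepsis stood apart from the other splenic libraries. Its counts on kappa V segments were 20739, while the other 2 splenic libraries after sepsis and the 3 after saline had between 622460 and 1171555. Where a segment had no count, up to 3 counts remain possible, or 0.105 to 0.405 CPM in these libraries. Splenic replicate 3 after sepsis also held the most Rag1 of any library, 63.3 CPM against at most 4.77 CPM in the other 11.

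The V exons of the 7 segments that were highest in a library are shown first, because the results below turn on which of them dominated, together with that of Ighv1-82, which came close behind Ighv1-54 in BM replicate 3 after sepsis. Each is given 5′ to 3′ from the GENCODE M21 transcripts (GRCm38, minus strand), with the last 300 coding bases for Ighv4-1, the segment most often on top, and the last 120 for the others. Capitals mark the 9 bases in reading frame for a tyrosine, a tyrosine or phenylalanine, and the conserved cysteine that closes framework 3, just before the joint with the D segment. The stretches shown lie at chr12:113948282-113948581 for Ighv4-1, chr12:114262652-114262771 for Ighv3-5, chr12:114788372-114788491 for Ighv1-26, chr12:115193675-115193794 for Ighv1-54, chr12:115952538-115952657 for Ighv1-82, chr12:115294062-115294181 for Ighv8-8, chr12:114391712-114391831 for Ighv6-3 and chr12:114140692-114140811 for Ighv9-3.
Ighv4-1: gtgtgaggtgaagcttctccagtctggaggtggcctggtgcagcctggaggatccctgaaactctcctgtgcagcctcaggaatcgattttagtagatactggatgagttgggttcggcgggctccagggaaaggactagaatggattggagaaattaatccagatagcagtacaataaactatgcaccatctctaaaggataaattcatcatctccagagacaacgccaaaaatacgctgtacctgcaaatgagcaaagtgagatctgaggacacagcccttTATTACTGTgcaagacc
Ighv3-5: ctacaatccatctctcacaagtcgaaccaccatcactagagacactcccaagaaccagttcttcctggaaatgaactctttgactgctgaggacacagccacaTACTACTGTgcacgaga
Ighv1-26: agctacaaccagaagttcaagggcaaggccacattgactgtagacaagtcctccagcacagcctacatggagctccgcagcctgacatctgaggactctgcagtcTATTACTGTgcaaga
Ighv1-54: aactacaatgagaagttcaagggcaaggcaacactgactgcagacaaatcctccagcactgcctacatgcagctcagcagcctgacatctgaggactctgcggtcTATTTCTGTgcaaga
Ighv1-82: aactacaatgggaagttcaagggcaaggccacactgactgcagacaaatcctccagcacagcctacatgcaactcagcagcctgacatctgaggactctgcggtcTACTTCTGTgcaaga
Ighv8-8: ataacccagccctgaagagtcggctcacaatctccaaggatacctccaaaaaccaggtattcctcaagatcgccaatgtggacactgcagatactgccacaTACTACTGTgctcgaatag
Ighv6-3: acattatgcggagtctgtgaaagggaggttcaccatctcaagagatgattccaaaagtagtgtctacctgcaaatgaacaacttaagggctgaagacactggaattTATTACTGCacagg
Ighv9-3: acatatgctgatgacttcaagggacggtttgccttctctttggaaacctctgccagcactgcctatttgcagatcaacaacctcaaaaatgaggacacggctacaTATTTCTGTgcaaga

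All 8 lie in the last coding exon of their gene, which encodes the V domain. The motif, searched as TA, then T or C, then T, any base, T or C, TG and T or C on the coding strand, was found in frame near the 3′ end of 108 of the 113 V exons. The 113 V exons are 294 to 351 bases long with a median of 305. Between the 8 segments, identity over the V exon ranged from 57.5% (Ighv1-54 and Ighv8-8) to 89.0% (Ighv1-54 and Ighv1-82), with a median of 63.6% over 28 pairs. Other segments have closer copies. At least 97% of the V exon was shared with another Ighv entry in 27 of the 113, and counts of these 27 are uncertain because the treatment of reads that match several genes is not given in the sources used here.

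Ighv14-1 (97.38% to Ighv14-4) and Ighv1-42 (97.05% to Ighv1-43) are among them, so their shares below are uncertain too. Ighv1-26, the highest segment in 2 libraries, is also among them. It differs from Ighv1-18 at 8 of 305 bases, and their longest identical run is 94 bases. Both are shown over their last 300 coding bases, at chr12:114788372-114788671 and chr12:114682632-114682931 on the minus strand, with the bases that differ in capitals.
Ighv1-26: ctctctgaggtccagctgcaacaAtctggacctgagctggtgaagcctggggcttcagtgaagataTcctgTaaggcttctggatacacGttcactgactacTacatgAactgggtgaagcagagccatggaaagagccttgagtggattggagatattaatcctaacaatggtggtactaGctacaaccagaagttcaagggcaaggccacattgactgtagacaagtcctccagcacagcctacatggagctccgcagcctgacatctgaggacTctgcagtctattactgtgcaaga
Ighv1-18: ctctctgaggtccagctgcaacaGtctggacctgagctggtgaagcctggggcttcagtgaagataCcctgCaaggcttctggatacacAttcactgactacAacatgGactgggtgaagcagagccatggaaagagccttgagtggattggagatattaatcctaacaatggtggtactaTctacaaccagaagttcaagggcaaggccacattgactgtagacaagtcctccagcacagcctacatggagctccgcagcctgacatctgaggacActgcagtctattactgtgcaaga

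Ighv1-18 itself reached at most 1.82% of the Ighv counts of any library. Ighv4-1 had its closest match in the pseudogene Ighv4-2 at 95.8%, and Ighv6-3 in Ighv6-6 at 92.6%.

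Heavy chain V counts were found in every library, and their sum was larger in splenic MKs than in BM MKs of the same treatment. No test was run on these sums. Their sum was 445, 255 and 135 CPM in BM MKs after saline, and 46.2, 48.7 and 209 CPM after sepsis. In splenic MKs it was 3180, 616 and 993 CPM after saline, and 1085, 1069 and 300.5 CPM after sepsis. The lowest splenic library in each treatment was above the highest BM library of the same treatment, but the splenic library at 300.5 CPM was below the BM library at 445 CPM. The raw counts behind these sums were 5181, 2566 and 1254 in BM MKs after saline and 708, 573 and 5959 after sepsis, and 23532, 7472 and 9256 in splenic MKs after saline and 21107, 9541 and 3096 after sepsis. As a share of all counts this was 0.0331% ± 0.0200 (SD, n = 3) in BM MKs after saline, 0.0121% ± 0.0106 after sepsis, 0.124% ± 0.0956 in splenic MKs after saline and 0.0632% ± 0.0280 after sepsis. On this share the separation of the tissues was narrow. After saline the lowest splenic library had 0.0579% and the highest BM library 0.0552%, and after sepsis they had 0.0309% and 0.0242%. Within each tissue the values after saline and after sepsis overlapped.

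Markers of B lineage cells moved with the tissue in the same libraries. The summed level of 7 B cell genes (Cd79a, Cd79b, Ms4a1, Pax5, Cd22, Fcer2a and Cr2) was 160 to 269 CPM in BM MKs after saline and 49.8 to 93.1 CPM after sepsis, against 2674 to 6576 CPM and 2391 to 9166 CPM in splenic MKs, and 5 and 6 of the 7 were called lower in BM MKs after saline and after sepsis. The sum of 8 plasma cell genes (Jchain, Sdc1, Xbp1, Prdm1, Mzb1, Irf4, Tnfrsf17 and Derl3) was 1549 to 4697 CPM and 1485 to 2327 CPM in BM MKs, against 46743 to 80834 CPM and 7761 to 35669 CPM in splenic MKs, with 5 and 4 of the 8 called lower in BM MKs. Jchain, which joins the chains of secreted IgM and IgA, made up 84.4% to 99.0% of this sum in every library. The other 7 genes summed to 93.8 to 149 CPM and 141 to 236 CPM in BM MKs, against 558 to 1103 CPM and 1209 to 1675 CPM in splenic MKs. Of all genes tested, 0.725% after saline and 1.18% after sepsis were called lower in BM MKs. None of these 15 marker genes was at 0 in a whole group. The part that these cells had in the Ighv levels was not tested.

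Few segments carried most of the signal. Of the 113 segments, 106 had at least 1 count in some library and 7 had none in any, namely Ighv2-4, Ighv2-6-8, Ighv3-1, Ighv11-1, Ighv3-8, Ighv6-5 and Ighv6-7. In a single library 29 to 58 segments were detected. At least 10 counts in some library were reached by 92 segments, and 37 of the 92 did so in 1 library. Of the 92, 10 did so in BM libraries alone, 46 in splenic libraries alone and 36 in both. A fixed cut is reached more easily at higher Ighv totals, which were 573 to 5959 in BM and 3096 to 23532 in splenic libraries. The same share over all genes was not computed, so this division is no support for a difference between tissues. Only 18 segments ever reached 10% of the Ighv counts of a library. These 18 held 78.1% of the 90245 Ighv counts of all libraries, and 13 of them reached 10% in 1 library and 5 in at least 2. They were chosen here for that share, so it is a description.

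**Figure D1:**
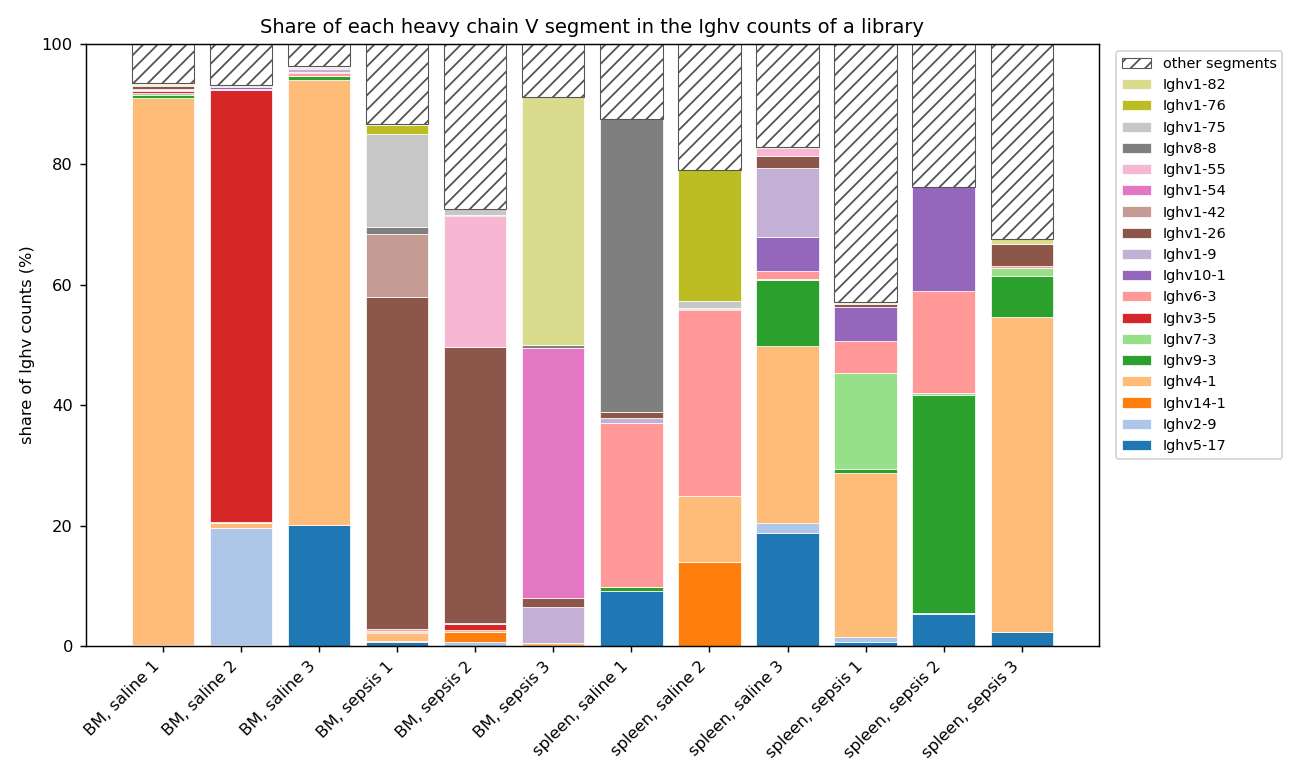
Stacked bars give the share (%) of the Ighv counts of each of the 12 libraries that fell on each of the 18 segments that reached 10% in any library, in order along the locus from the D segments at the bottom, and the hatched part holds all other segments. Ighv4-1 takes 90.8% and 73.9% of the counts in BM saline 1 and 3, Ighv3-5 takes 71.7% in BM saline 2, and the splenic bars are divided among more segments.

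BM MKs after saline were dominated by 1 segment each. Ighv4-1, the single member of its family, took 90.8% of 5181 counts in replicate 1 (exact Clopper-Pearson 95% CI, 90.0% to 91.6%) and 73.9% of 1254 counts in replicate 3 (71.4% to 76.3%). In replicate 2 Ighv3-5 took 71.7% of 2566 counts (70.0% to 73.5%), and Ighv4-1 only 0.701%. These intervals cover counting error only, since PCR copies of 1 molecule are counted as separate reads. Ighv2-9 followed in replicate 2 at 19.6% and Ighv5-17 in replicate 3 at 20.1%, whereas no second segment of replicate 1 exceeded 0.714%. All 4 of these segments lie among the 38 nearest the D segments, with Ighv3-5 the last of the 38.

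BM MKs after sepsis used other segments, almost all of family 1. Ighv1-26 was highest in replicate 1 with 55.2% of 708 counts (51.5% to 58.9%) and in replicate 2 with 45.9% of 573 counts (41.8% to 50.1%). In replicate 1 it was followed by Ighv1-75 at 15.4% and Ighv1-42 at 10.3%, and in replicate 2 by Ighv1-55 at 21.6%. Replicate 3 was split almost evenly between Ighv1-54 at 41.5% (40.2% to 42.8%) and Ighv1-82 at 41.2% of 5959 counts. Outside this library Ighv1-54 had at most 3 counts in any other, and Ighv1-82 at most 26.

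In splenic MKs after saline, Ighv8-8 took 48.6% (48.0% to 49.3%) and Ighv6-3 27.2% of the counts in replicate 1. Ighv6-3 was highest in replicate 2 at 31.0% (29.9% to 32.1%), ahead of Ighv1-76 at 21.8%, Ighv14-1 at 13.9% and Ighv4-1 at 10.9%. Ighv4-1 was highest in replicate 3 at 29.3% (28.4% to 30.2%), followed by Ighv5-17 at 18.8%, Ighv1-9 at 11.5% and Ighv9-3 at 11.1%. After sepsis Ighv4-1 was highest in replicate 1 at 27.1% (26.5% to 27.7%) with Ighv7-3 at 15.9%, and in replicate 3 at 52.3% (50.5% to 54.1%). In replicate 2 Ighv9-3 took 36.2% (35.3% to 37.2%), Ighv10-1 17.2% and Ighv6-3 17.0%. Over the 12 libraries 7 different segments were on top, Ighv4-1 in 5 libraries and Ighv1-26 in 2.

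The share of the highest segment was 78.8% ± 10.4 (SD, n = 3) in BM MKs after saline, 47.5% ± 7.01 in BM MKs after sepsis, 36.3% ± 10.7 in splenic MKs after saline and 38.5% ± 12.7 after sepsis. The 3 BM libraries after saline, at 71.7% to 90.8%, were above all 9 others, which lay between 27.1% and 55.2%. The effective number of segments (the exponential of the Shannon entropy of the shares, which is 1 when a single segment holds all counts) was 1.91, 2.78 and 2.46 in BM MKs after saline and 5.21, 7.53 and 4.05 after sepsis. It was 4.38, 8.19 and 10.1 in splenic MKs after saline and 13.5, 7.8 and 7.01 after sepsis. The BM values rested in part on segments under 10 counts. BM MKs after saline had the lowest 3 values, and the other groups overlapped. The number of segments did not follow this order. After rarefaction of every library to 573 Ighv counts, the expected number of segments was 21 to 30.3 in BM MKs after saline, 18.9 to 30.0 after sepsis, 14.7 to 25.9 in splenic MKs after saline and 24.1 to 30.3 after sepsis, and all groups overlapped. No test was run on these measures, since the segments were chosen with earlier results of these data known.

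**Figure D2:**
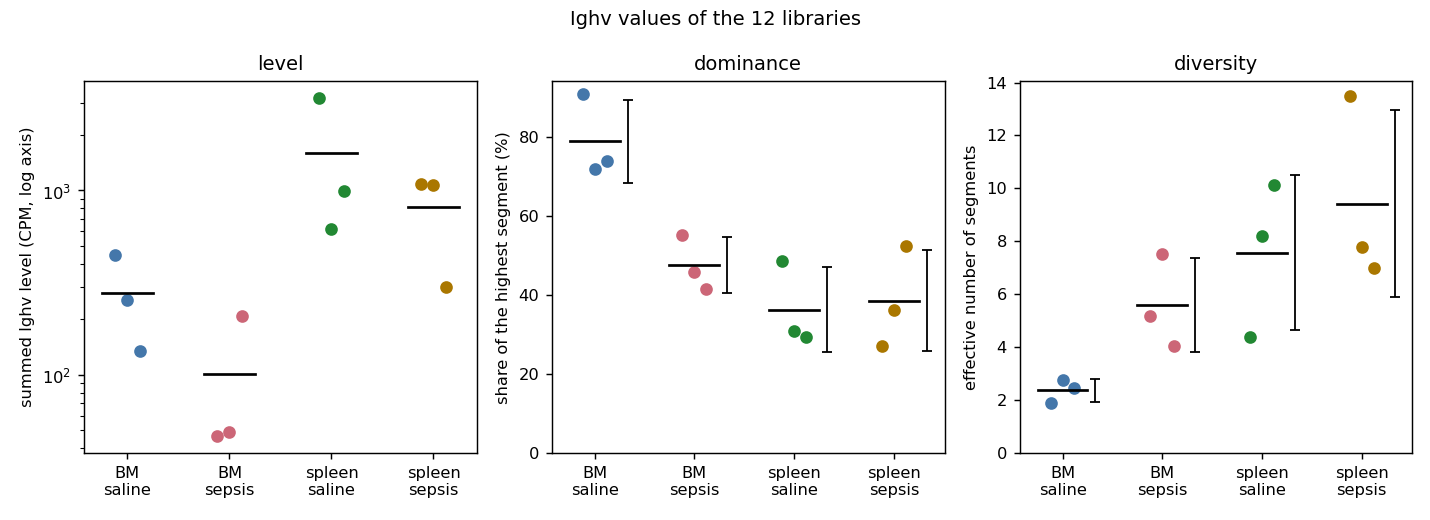
Each point is 1 library, black lines are group means and bars at the side of the points are ± 1 SD (n = 3), for the summed Ighv level (CPM, log axis), the share of the highest segment (%) and the effective number of segments. The 3 BM libraries after saline have the highest share of a single segment and the lowest effective numbers, 1.91 to 2.78.

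Usage was also read by family and by place in the locus. Family 1 segments took 4.36%, 3.16% and 3.27% of the Ighv counts of the 3 BM libraries after saline and 93.6%, 82.4% and 97.3% of those after sepsis. In splenic MKs they took 11.9%, 33.2% and 24.5% after saline and 17.1%, 10.9% and 7.59% after sepsis. The 3 BM libraries after sepsis did not overlap with any other group. Replicates 1 and 2 had the same highest segment, Ighv1-26, while that of replicate 3 was a different member of family 1. To describe position, the 113 segments were divided by order into the 38 nearest the D segments (proximal), the next 37 (middle) and the last 38 (distal). Proximal segments held 94.2%, 93.6% and 95.1% of the counts in BM MKs after saline and 3.39%, 12.4% and 1.48% after sepsis, and in splenic MKs they held 11.7%, 32.4% and 67.1% after saline and 61.3%, 50.7% and 88.9% after sepsis. The cut matters for BM replicate 2 after saline, since Ighv3-5, with 71.7% of its counts, is the last of the 38 proximal segments. A cut placed just before Ighv3-5 would move that share to the middle part. Family and position are not independent, because none of the 53 family 1 segments is proximal and all segments of families 2, 4, 5, 7, 11, 14 and 16 are. In the distal part, BM replicate 3 after sepsis held 86.1% and splenic replicate 1 after saline 51.0%, while the other 10 libraries held 1.91% to 33.4%.

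**Figure D3:**
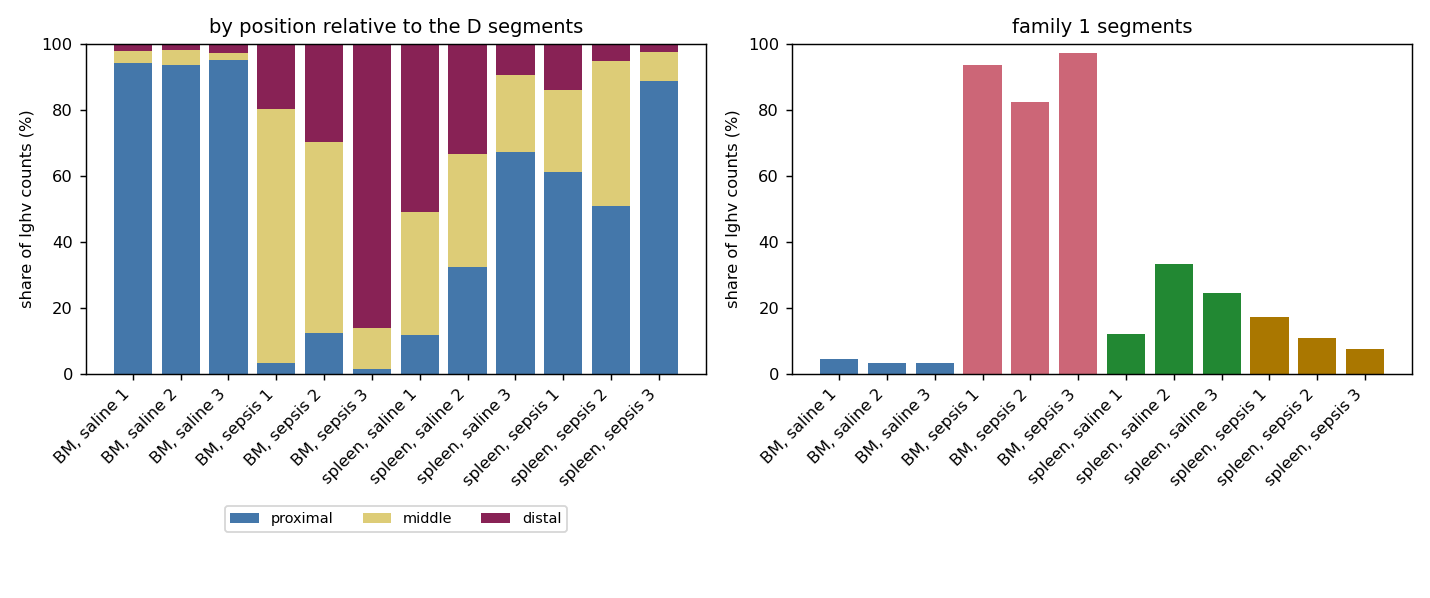
Left, share (%) of the Ighv counts of each library on the 38 proximal, 37 middle and 38 distal segments, and right, share on the 53 family 1 segments, with bars colored by group. Proximal segments hold 93.6% to 95.1% in BM MKs after saline and at most 12.4% after sepsis, where family 1 holds 82.4% to 97.3%. The 93.6% of BM saline 2 depends on the cut, as its main segment Ighv3-5 is the last proximal one.

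Most libraries of a group shared a minor part of their usage, though more in the median than pairs from different groups. Shared usage was computed as the sum over segments of the lower of the 2 shares, which is 100% for identical usage. It ranged from 1.04% to 76.4% over all 66 pairs of libraries, with a median of 5.05%. The median was 17.1% over the 12 pairs within a group. It was 4.82% over the 18 pairs of the same tissue under the other treatment and 4.68% over the 36 pairs across tissues. Over the 15 pairs of BM libraries it was 3.30%, and over the 15 pairs of splenic libraries 19.8%. The highest value, 76.4%, was that of BM replicates 1 and 3 after saline, which both used Ighv4-1, while replicate 2 shared 2.78% and 1.65% with them. BM replicates 1 and 2 after sepsis shared 55.1% through Ighv1-26. Pairs across tissues could be as high, since BM replicate 3 after saline shared 56.3% with splenic replicate 3 after sepsis. Of the 11 pairs with the highest shared usage, 10 had Ighv4-1 as their largest common segment. Pairs share libraries and are not independent, so these values are a description.

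**Figure D4:**
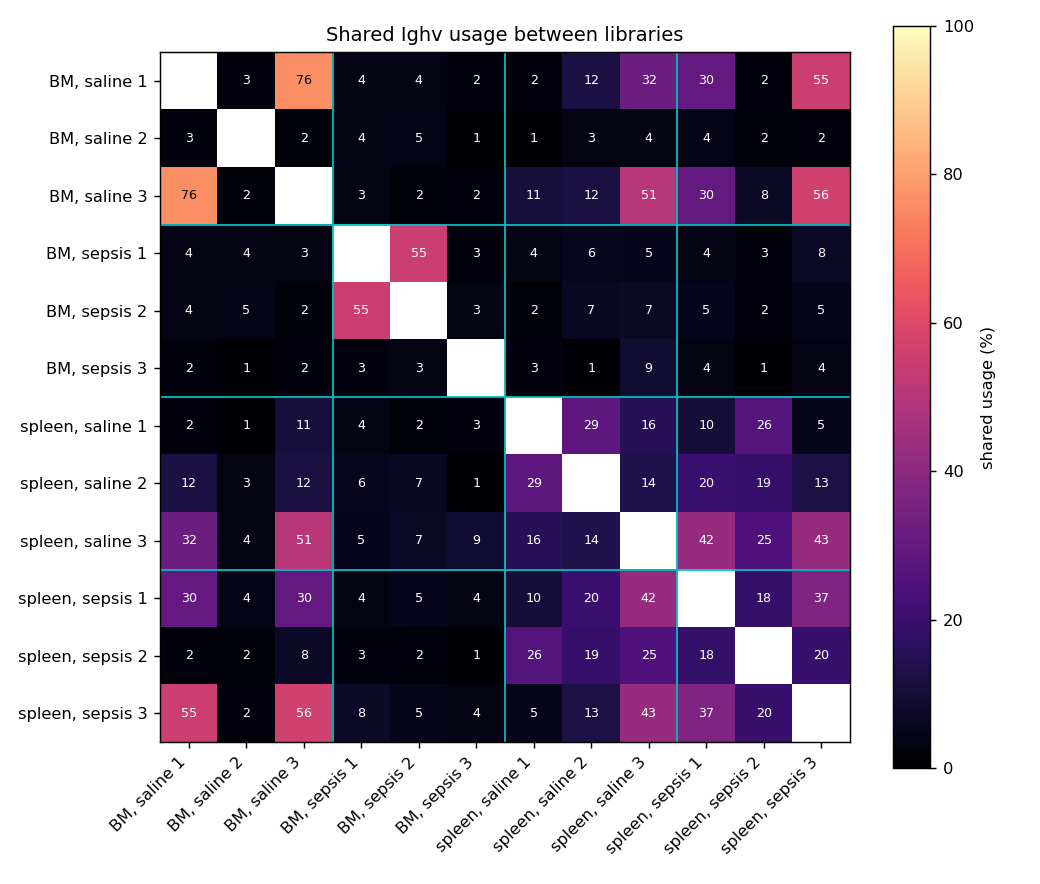
Shared usage (%) of Ighv segments for each of the 66 pairs of the 12 libraries, with lines between the 4 groups. The brightest cells join libraries that use Ighv4-1 (76.4% between BM saline 1 and 3) or Ighv1-26 (55.1% between BM sepsis 1 and 2).

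The constant and J genes that accompany a rearranged V segment were read in the same libraries, although gene counts do not link them within a molecule. IgM was the main constant region in splenic MKs, where Ighm took 76.7% to 98.1% of the constant region counts. In BM MKs after saline the largest share was that of Ighg3, the IgG3 constant gene, in the 2 libraries with Ighv4-1 (88.3% in replicate 1 and 63.9% in replicate 3), and that of Igha, the IgA constant gene, in the library with Ighv3-5 (88.7%). After sepsis Igha was the largest in BM replicates 2 (96.1%) and 3 (80.1%), and in replicate 1 Ighm had 54.7% and Igha 42.5%. Among the J genes, Ighj4 held 175 of 177 counts in BM replicate 1 after saline and Ighj1 38 of 41 in replicate 3, so that the 2 libraries with the same V and constant gene differed in their main J gene. Ighj2 held 114 of 146 counts in replicate 2. BM replicate 1 after sepsis had 2 J counts, too few to read. For every 100 constant region counts there were between 0.641 and 17.1 Ighv counts, and for every 100 kappa V counts between 0.962 and 14.9.

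The study set BM against splenic MKs after each treatment, and sepsis against saline in each tissue. All genes were fitted together, and 27 of the 113 segments passed edgeR's filter on low counts (minimum count 10) among 20263 genes tested, while 86 did not. A segment that passed through the group in which it was high had to differ, so counts and medians over the 27 are no support for a difference. Fold changes are given as BM over spleen or sepsis over saline on the log2 scale, and a gene was called when its p, adjusted by Benjamini-Hochberg over all genes, was under 0.05.

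After saline, 2 of the 27 segments were called lower in BM MKs and none higher, where 0.725% of all genes tested were called lower. Ighv6-3 had 0.258, 0.497 and 0.538 CPM in BM MKs and 866, 191 and 14.3 CPM in splenic MKs. All splenic values were above all BM values. It passed with an adjusted p of 0.00675 in edgeR at a fold change of -9.67 with an SE of 1.73, and pooled CPM were 732-fold higher in splenic MKs (counting interval 428 to 1375, from 13 and 8854 counts). Replicate 1 held 6405 of the splenic counts, and without it the pooled level was 272-fold higher (159 to 512) and the fitted log2 fold change -7.88. Ighv8-8 had 1.03, 0.497 and 0.108 CPM in BM MKs and 1546, 0.413 and 0 CPM in splenic MKs. Its groups overlapped, as 11441 of its 11446 splenic counts came from replicate 1. The call (adjusted p = 0.0472 in edgeR at a fold change of -9.83 with an SE of 2.39) was lost without that library (adjusted p = 0.878), where its direction reversed, and without any 1 of the 3 BM libraries after saline (0.145 to 0.208) or the 3 splenic libraries after sepsis (0.0523 to 0.0641). It was also lost with the replicate block (0.532) and with limma-voom (0.646). Ighv6-3 was lost without BM replicate 1 after saline (adjusted p = 0.0501) and with limma-voom (adjusted p = 0.147). Ighv4-1, with 404, 1.79 and 99.8 CPM in BM MKs and 0.135, 67.2 and 291 CPM in splenic MKs, varied more within each tissue than between them, with a fold change of 0.50 and an SE of 1.55 (adjusted p = 0.948 in edgeR).

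After sepsis, 5 of the 27 were called lower in BM MKs and none higher, against 1.18% of all genes tested called lower. Ighv6-3 had 0.130, 0 and 0.0351 CPM in BM MKs and 58.0, 181 and 0.582 CPM in splenic MKs, and it passed with an adjusted p of 0.00441 in edgeR at a fold change of -10.27 with an SE of 1.83. Its call was lost with limma-voom (adjusted p = 0.0547). From 3 and 2752 counts the pooled ratio was 1319 (counting interval 451 to 6398), and it was 706 (241 to 3430) without splenic replicate 2 and 2864 (514 to 113181) without BM replicate 1. Ighv9-3 had a single count in BM MKs (0.0652 CPM in replicate 1) and 7.66, 387 and 20.8 CPM in splenic MKs (adjusted p = 0.0146 in edgeR, with a log2 fold change of -12.22 and an SE of 2.56). The pooled ratio from 1 and 3819 counts was 5489, with a counting interval from 985 to 216870. Splenic replicate 2 held 3456 of these counts, and without it the ratio was 678 (121 to 26862). Without BM replicate 1, which held the single BM count, splenic MKs were at least 1325-fold higher, and without BM replicate 3 or splenic replicate 1 the ratio was 2675 (480 to 105698) or 10612 (1903 to 419259). Neither segment overlapped between the tissues.

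The other 3 had no count in BM MKs after sepsis, so their folds are lower bounds against a floor of 3 counts over the group. Ighv7-3 had 173, 3.03 and 4.08 CPM in splenic MKs, at least 1643-fold higher than in BM MKs (adjusted p = 0.0138 in edgeR). Replicate 1 held 3360 of its 3429 splenic counts, and without it the bound was 66.5-fold. Ighv6-6 had 46.8, 32.6 and 8.44 CPM and was at least 617-fold higher (adjusted p = 0.0230). Ighv10-1 had 60.6, 184 and 0.0971 CPM and was at least 1353-fold higher (adjusted p = 0.0445), although splenic replicate 3 held 1 count. Without splenic replicate 1 the bound of Ighv6-6 was 364-fold, and without splenic replicate 2 that of Ighv10-1 was 735-fold. Without BM replicate 3, the deepest of the BM libraries, the bounds were 801-fold for Ighv7-3, 301-fold for Ighv6-6 and 659-fold for Ighv10-1. These calls were close to the threshold. Ighv10-1 was lost without any 1 of the 3 BM libraries after sepsis (adjusted p = 0.143 to 0.153) and without splenic replicate 1 (0.0633) or 2 (0.131) after sepsis, and also without BM replicate 1 (0.0546) or 3 (0.0528) after saline and with scaling by library size alone (0.0551). Ighv6-6 was lost without any 1 of the same BM libraries (0.104 to 0.122) and without splenic replicate 1 (0.117) or 2 (0.0720). Ighv7-3 was lost without any of these BM libraries (0.0552 to 0.0620) and without splenic replicate 1 (0.324). Ighv9-3 was lost without any of these BM libraries (0.0604 to 0.0833) and without splenic replicate 2 (0.0947). Ighv4-1 had 0.587, 0.170 and 0.877 CPM in BM MKs and 294, 0.784 and 157 CPM in splenic MKs. It was not called in edgeR (adjusted p = 0.0613, with a log2 fold change of -8.04 and an SE of 2.12). DESeq2 called it (adjusted p = 0.000604), as did edgeR with the replicate block (0.029).

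**Figure D5:**
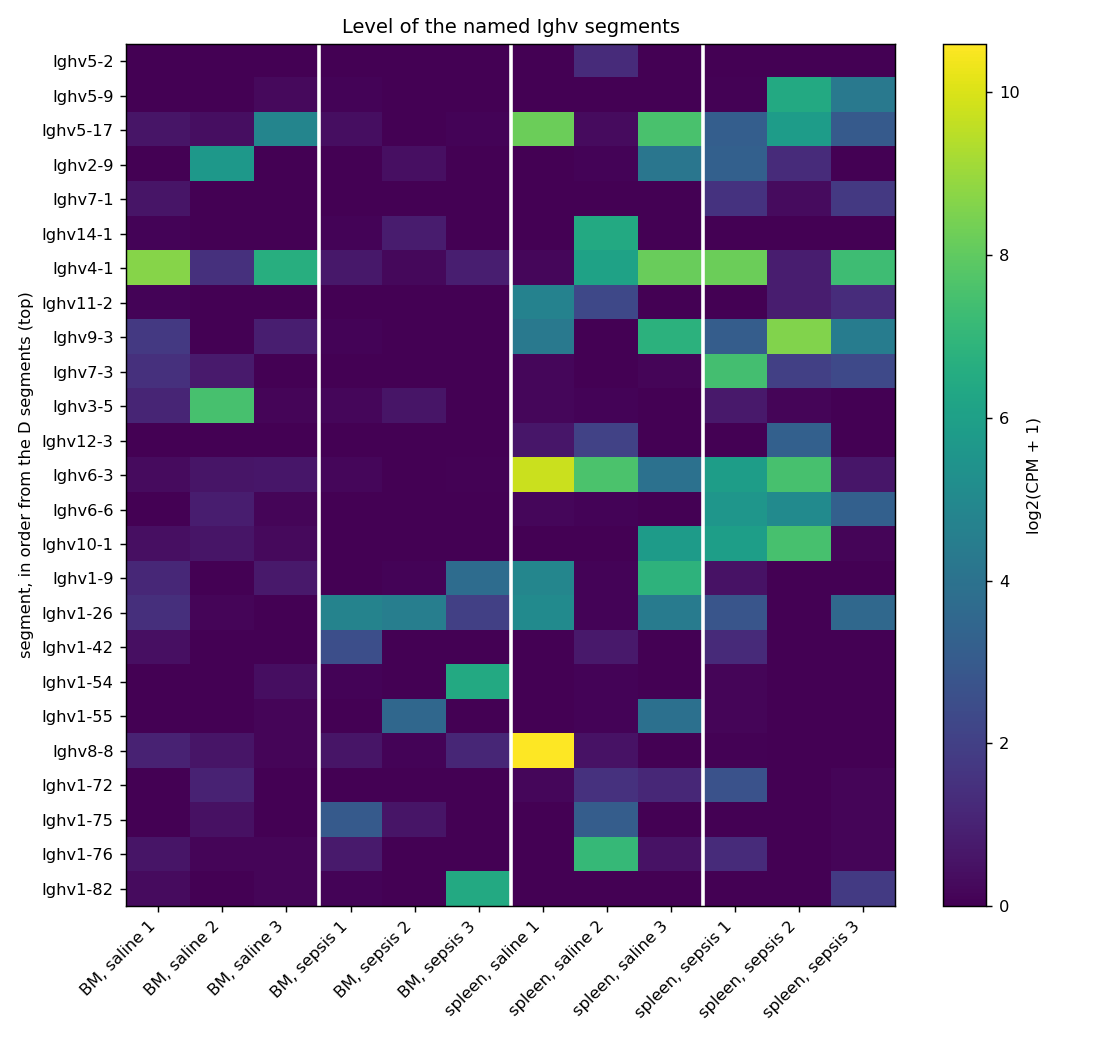
Level of the 25 named segments, as log2(CPM + 1), in each of the 12 libraries (columns, with white lines between groups), in order from the D segments at the top. Ighv6-3 is bright in splenic columns and dark in BM columns, Ighv8-8 in a single column, and Ighv7-3, Ighv6-6 and Ighv10-1 are at 0 in the 3 BM columns after sepsis.

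The median log2 fold change over the 27 tested segments was -4.45 after saline and -5.70 after sepsis, beside -0.28 and -0.18 over all genes tested. With the 8 segments that were at 0 in 1 tissue after sepsis set at their bound, the second median was -5.11. In each treatment 6 of the 27 had a fold change above 0. Because of the filter, these medians describe the segments that passed and are no support for a difference.

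No segment was called between sepsis and saline in splenic MKs, where 0.158% of all genes tested were called. In edgeR, 5 of the 27 had an unadjusted p under 0.05, as had 13.1% of all genes tested. DESeq2 called 2 of the 27 and 4.87% of all genes, and limma-voom 0 of either. The smallest adjusted p was that of Ighv8-8 (0.0711 in edgeR), which had 1546, 0.413 and 0 CPM after saline and 0.0514, 0 and 0 CPM after sepsis. Ighv7-3 had 0.135, 0 and 0.107 CPM after saline and 173, 3.03 and 4.08 CPM after sepsis, without overlap, but its fold change of 9.47 with an SE of 2.23 did not pass the threshold (adjusted p = 0.144 in edgeR). The same held for Ighv6-6, with 0.135, 0.0825 and 0 CPM after saline and 46.8, 32.6 and 8.44 CPM after sepsis (adjusted p = 0.230 in edgeR, with a log2 fold change of 8.5 and an SE of 2.27).

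In BM MKs no segment was called between sepsis and saline either, and 0% of all genes tested were called. In edgeR, 7 of the 27 had an unadjusted p under 0.05, beside 3.54% of all genes tested. DESeq2 called 2 of the 27 (Ighv4-1 and Ighv10-1, both lower after sepsis) and 1.02% of all genes, and limma-voom called none. Of these, Ighv10-1 rested on 4, 5 and 2 counts after saline and none after sepsis, near the floor of 3 counts. Ighv4-1 had 404, 1.79 and 99.8 CPM after saline and 0.587, 0.170 and 0.877 CPM after sepsis, so that the lowest library after saline was above the highest after sepsis (adjusted p = 1 in edgeR, with a log2 fold change of -8.20 and an SE of 2.13). Ighv1-26 had 1.72, 0.0994 and 0 CPM after saline and 25.5, 22.4 and 3.05 CPM after sepsis, again without overlap (adjusted p = 1 in edgeR, with a log2 fold change of 4.77 and an SE of 2.11). The median log2 fold change of the 27 was -0.75 in splenic MKs and -2.03 in BM MKs (-1.59 with segments at 0 in 1 group at their bound), beside -0.08 over all genes in both.

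Whether sepsis acted differently in the 2 tissues was tested as an interaction. It was called for no segment, as for 0% of all genes tested. An unadjusted p under 0.05 in edgeR was found for 9 of the 27 and for 7.68% of all genes tested. DESeq2 called 3 of the 27 and 2.44% of all genes, and limma-voom none. The smallest adjusted p in edgeR was 0.234, for Ighv7-3.

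The 5 segments known for particular antibodies or positions each took under 1% of the Ighv counts of every library. Ighv5-2, the functional segment nearest the D segments and the one favored early in B cell development, had 18 counts in splenic replicate 2 after saline and none in the other 11 libraries. Ighv11-2 and Ighv12-3, whose products in B-1 cells bind phosphatidylcholine, reached 25.1 CPM in splenic replicate 1 after saline and 8.52 CPM in splenic replicate 2 after sepsis. In BM MKs the first had 1 count and the second none. Ighv11-2 shares 98.7% of its V exon with Ighv11-1, so its counts are uncertain. Ighv7-1, used by antibodies to phosphorylcholine, had at most 2.43 CPM (splenic replicate 3 after sepsis), and Ighv1-72, used in the response to nitrophenyl haptens, at most 5.29 CPM (splenic replicate 1 after sepsis). Ighv1-72 is 99.0% identical to Ighv1-62-3.

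Genes that act on the locus were read from lists written with earlier results of these data known. Of 14 genes of V(D)J recombination and class switching 13 were tested, and none was called in any of the 5 comparisons (median log2 fold change 0.48 between tissues after saline and -0.50 after sepsis). Rag1 and Rag2, which make the recombinase, were found in the same 4 libraries. Rag1 had 4.77 CPM in BM replicate 2 after saline, 0.0652 CPM in BM replicate 1 after sepsis, and 2.69 and 63.3 CPM in splenic replicates 2 and 3 after sepsis, and Rag2 had 3.28, 0.391, 1.57 and 21.9 CPM there. Both were at 0 in the other 8. Dntt, which adds bases at the joints, was at 0 in all 12.

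Of 12 factors that bind V promoters or the heavy chain enhancers, 4 were called lower in BM MKs after saline and 6 after sepsis. None was called higher (median log2 fold change -2.51 and -2.36). Of all genes tested, 0.725% and 1.18% were called lower. Pou2af1, the B cell coactivator of the octamer element in V promoters, had 1.46, 9.74 and 19.6 CPM in BM MKs and 214, 146 and 450 CPM in splenic MKs after saline (adjusted p = 0.00418 in edgeR, with a log2 fold change of -4.72 and an SE of 0.80). After sepsis it had 7.24, 11 and 16.7 CPM against 517, 544 and 778 CPM (adjusted p = 0.000773 in edgeR, with a log2 fold change of -5.71 and an SE of 0.84). Ebf1, Irf4 and Irf8 were the others called after saline, and Pou2f2, Pax5, Ebf1, Irf4 and Irf8 those after sepsis. Of the heavy chain constant genes 7 were tested, and Ighm and Ighd were called lower in BM MKs after both treatments and Ighg2b after sepsis (median log2 fold change -4.38 and -4.10). Of 8 genes of B cell precursors 5 were tested, and Vpreb3, which pairs with the heavy chain in precursors, was the one called, lower in BM MKs after both treatments (median 1.76 and -5.81). No gene of these lists, nor of the MK, B cell and plasma cell lists, was called between sepsis and saline in either tissue or in the interaction.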

How the data were processed

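RNA of 300 sorted MKs per library was measured in 12 libraries (4 groups, 3 replicates). The authors made libraries with the SMART-Seq HT and Nextera XT kits and deposited raw counts of reads per gene for 55536 Ensembl identifiers, without normalization. The submitters' processing notes name STAR 2.7.2b, R 3.6.1, DESeq2 1.26 and GRCm38, without their roles. Not given in the sources used here are the annotation, strand setting, read length and treatment of reads that match several genes, so counts can be divided between near-identical V segments. All 12 columns of deposited counts entered.

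GENCODE M21 (GRCm38) held every identifier and gave symbols, biotypes, positions and sequences. Genes were kept with filterByExpr (minimum count 10) and fitted in edgeR 4.0.16 (R 4.3.3) with TMM factors and 1 mean per group, with 8 residual degrees of freedom and 11.1 prior ones. Quasi-likelihood F tests were run for 5 comparisons, with Benjamini-Hochberg adjustment over all genes. The biological coefficient of variation was 143%, so the spread between libraries limits most values. DESeq2 1.42.0, limma 3.58.1 (voom with quality weights), other scalings and filters, a replicate block and each library left out were the alternatives. Shares, entropy, rarefaction and overlap were computed on raw counts with Python 3.11.15. Deviations from the group means gave 18 correlations between same-numbered libraries, from -0.0566 to 0.0447. These showed no sign of pairing by number, but they cannot tell whether libraries came from the same mouse. Replicates of a group differed by more than counting error (chi-square per degree of freedom 62.2 to 644). The p-values set each difference against the spread between these libraries, which edgeR estimated partly from all genes.

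Named segments were those with at least 10% of the Ighv counts of a library, the highest of each library, the 10 with the highest mean share in splenic libraries, those called, and 5 known for particular features. The segments and lists were chosen with earlier results of these data known. The 70 pseudogene entries were not members. Some genes of the lists are not reported here, and sums and counts leave them out.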

Additional observations from a re-analysis of the deposited data

How the results depend on the processing

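The calls depended on the filter and the tool. Without a filter on low counts, 11 segments were called between tissues after saline, 15 after sepsis, 5 between treatments in spleen, 4 in BM and 10 in the interaction, of 106 tested, beside 1.16%, 1.30%, 0.408%, 0.177% and 0.284% of 45788 genes. DESeq2 called 5, 10, 2, 2 and 3 of the 27, beside 6.47%, 7.26%, 4.87%, 1.02% and 2.44% of all genes, and gave no adjusted p for 7 to 9 of the 27. With at least 10 counts in at least 6 libraries, 0 of 4 segments were called after saline and 1 after sepsis, beside 2.09% and 3.0% of 12787 genes. Limma-voom called 0 after saline, beside 0.913% of all genes. With the replicate block, 1 was called after saline and 7 after sepsis, beside 1.42% and 1.98% of all genes. Whether the numbers pair the samples is not known. With each library left out in turn, the count ranged from 0 to 2 after saline, 1 to 6 after sepsis, 0 to 1 in spleen, 0 to 0 in BM and 0 to 1 in the interaction. Between tissues after sepsis, Ighv4-1 was gained without BM replicate 2 after saline, splenic replicate 1 after saline or splenic replicate 2 after sepsis. Ighv5-17 was gained there without BM replicate 3 or splenic replicate 2 after saline. In spleen the segment gained was Ighv8-8, without splenic replicate 2 or 3 after saline. It was also the one gained in the interaction, without splenic replicate 3 after saline. The adjusted p of Ighv8-8 after saline ranged from 0.00698 to 0.878 with each library left out, and its direction reversed at 0.878, without splenic replicate 1 after saline, which held nearly all its counts. With pseudogene entries added, the mean effective number of segments was 2.86 in BM MKs after saline and 7.70 after sepsis. With segments under 10 counts set to 0 it was 1.83 and 3.53. In the main computation single BM libraries had 1.91 to 2.78 after saline and 4.05 to 7.53 after sepsis. The BM values thus rest in part on segments with few counts. The cause of the other changes was not tested. RLE factors, library size alone and scaling without immunoglobulin and T cell receptor genes kept each count of calls within 1.5 times. At 573 to 23532 Ighv counts per library, segments under 0.0127% to 0.524% of them may be missed.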
